A study of Mus musculus with 6 samples.

Results

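The transcription regulators described here are 10 genes that switch on the programmes of spermatocytes and spermatids in the mouse testis: Mybl1, Tcfl5, Rfx2, Rfx3, Rfx4, Sox30, Crem, Tbpl1, Taf7l and Pou5f2. They were taken by symbol from the deposited table of 50763 gene symbols, in which all 10 were present, and 9 of them were expressed enough to be tested among 18860 genes. Poly(A) RNA of whole testis on postnatal day 14 was sequenced from 3 wild-type samples (WT) and 3 samples labelled sKO, the conditional knockout of Rif1 in germ cells that have not yet entered meiosis. The driver of the deletion, the deleted exons, the strain and whether each sample is a separate animal are not stated by the sources, so p-values reflect sample-to-sample spread that could be technical.

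In the first wave of spermatogenesis germ cells pass together from spermatogonia into meiotic prophase, and at this age the most advanced cells are pachytene spermatocytes while spermatids are largely missing. MYBL1 (A-MYB) is the master activator of the pachytene programme, including pachytene piRNA genes, and TCFL5, a basic helix-loop-helix factor, acts with it. RFX factors bind the X-box of ciliary genes, and in the mouse RFX2 is needed for spermatid flagella. SOX30, CREM, the TBP-like factor TBPL1 and the TFIID subunit TAF7L drive genes of round spermatids, and POU5F2 is a testis POU-domain protein.

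Library totals ranged from 15941672 to 18296594 counts, so that 3 counts, the limit that a count of 0 allows, corresponded to 0.165 to 0.187 CPM (counts scaled to library size). Rif1 itself stood at 103 ± 23.3 in WT against 45.8 ± 3.62 CPM in sKO (SD, n = 3 per group; log2 fold change -1.17, adjusted p = 0.0145 in edgeR), and the groups did not overlap. The markers of the labelled tissue were present: Ddx4, the germ cell helicase, stood at 342 ± 100.5 in WT against 209 ± 35.6 CPM in sKO (SD, n = 3 per group), and 21 Sertoli markers summed to 7687 to 8633 CPM in WT. The protamine genes Prm1 and Prm2, which define elongating spermatids, had group means of at most 0.133 CPM. Markers of the epididymis and efferent ducts summed to 342 CPM in sKO library 1 and to between 129 and 207 CPM in the other 5 libraries.

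Among the 10 regulators the sKO testes held less RNA of Rfx2, and the largest estimates of decrease belonged to Rfx4, Rfx2 and Sox30, in that order. For these 3 genes every sKO library lay below every WT library, whereas the groups overlapped for the other 6 tested regulators. Rfx4 passed the filter on low counts only through its WT libraries, the group in which it was high. Being tested thus went with being lower in sKO, and Rfx4 is no support in this order or in the counts below. In edgeR's quasi-likelihood test with Benjamini-Hochberg adjustment over all tested genes, 1 of the 9 tested regulators, Rfx2, passed an adjusted p of 0.05 as lower (1.27% of all tested genes did) and 0 as higher (0.0318% of all tested genes). At an unadjusted p under 0.05, 5 were lower and 0 higher, against 8.54% and 5.06% of all tested genes. DESeq2 called 4 lower, Rfx2, Rfx4, Sox30 and Tcfl5 (3.17% of the genes it tested), and 0 higher (0.249%), and limma-voom called 0 regulators and 0 genes in all. Estimates lay below 0 for 7 of the 9, against 44.7% of all tested genes. The 3 regulators without overlap compare with 10.7% of tested genes that had all sKO below all WT libraries, and 0 regulators compare with 9.58% that were higher. For any single gene, an exact two-sided permutation test of 3 against 3 libraries cannot go below p = 0.1, the value reached by Rfx4, Rfx2 and Sox30.

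**Figure D1:**
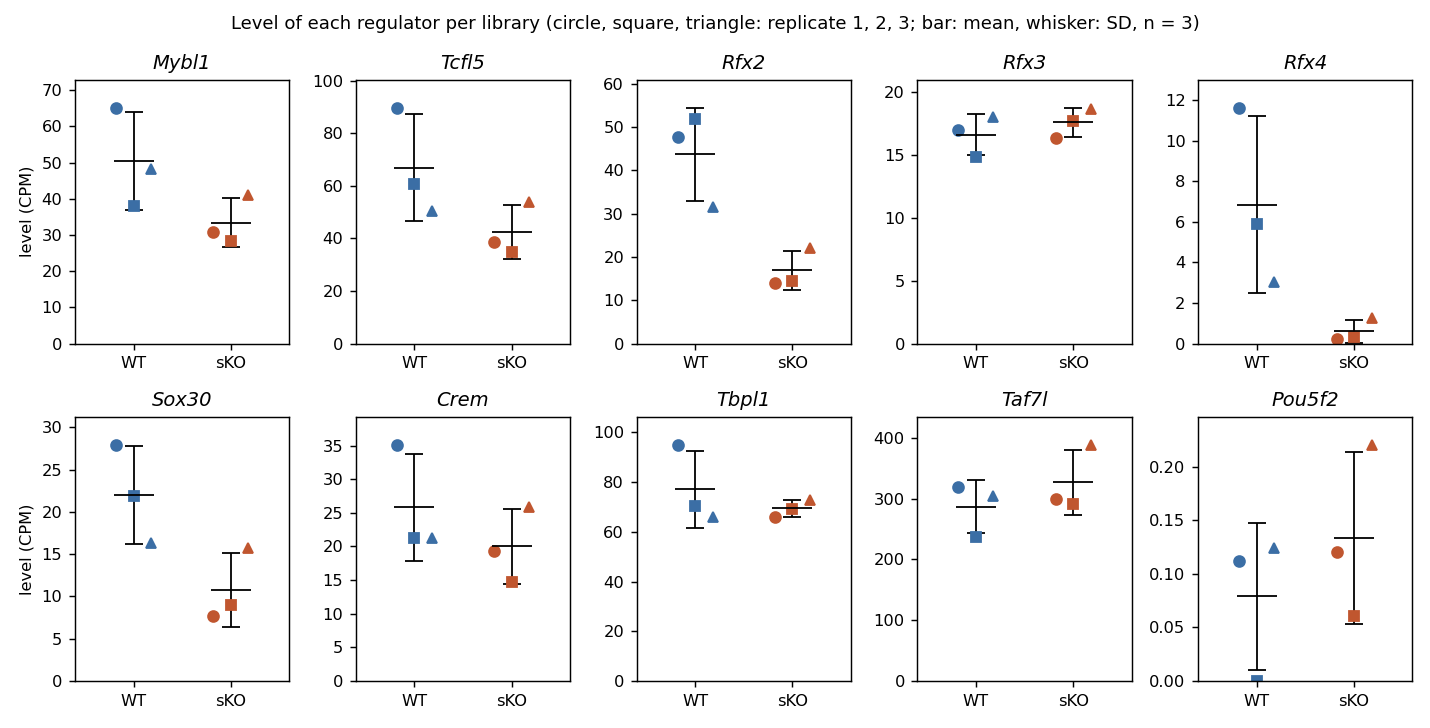
Level of each regulator in CPM (y axis, from 0, a separate scale for each gene) in the 3 WT and 3 sKO libraries; symbols mark the replicate number, and the bar and whiskers give mean and SD. The sKO libraries of Rfx2, Rfx4 and Sox30 lie below all WT libraries, with means of 16.9 against 43.7, 0.603 against 6.85 and 10.8 against 22.03 CPM.

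The upstream pair of the pachytene programme had lower estimates that edgeR did not call. Mybl1 stood at 65.1, 38.1 and 48.2 CPM in WT libraries 1 to 3 and at 30.9, 28.2 and 41.2 CPM in sKO libraries 1 to 3. Only sKO library 3 reached into the WT range, above WT library 2. The log2 fold change of Mybl1 was -0.59 (SE 0.20, adjusted p = 0.218 in edgeR), with WT holding 1.51 times the sKO level. It passed without sKO library 3 (log2 fold change -0.80, adjusted p = 0.0499 in edgeR) and was -0.37 without WT library 1, with an edgeR adjusted p of up to 0.591 over the libraries left out in turn.

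Tcfl5, whose product binds E-box DNA and shares target genes with MYBL1, stood at 89.6, 60.7 and 50.3 CPM in WT libraries 1 to 3. In sKO libraries 1 to 3 it stood at 38.6, 34.8 and 53.9 CPM, and again sKO library 3 alone lay above the lowest WT library. The log2 fold change was -0.66 (SE 0.23, adjusted p = 0.243 in edgeR). DESeq2 called it (adjusted p = 0.0498), and leaving out WT library 1 gave -0.39. In the GENCODE annotation of GRCm38, 234 exonic bases of Tcfl5 are shared with Col9a3 on the opposite strand. The sources do not state how strand was treated in counting, so reads of the 2 genes cannot be told apart there. Col9a3 had 212 to 252 counts in WT and 238 to 286 in sKO libraries, fewer than the 575 to 1598 counts of Tcfl5.

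Of the 3 RFX genes of the set, Rfx2 fell, Rfx4 had a lower estimate that missed the threshold and Rfx3 overlapped between groups. Rfx2 acts in late spermatocytes and round spermatids, Rfx3 drives ciliary genes in many tissues, and Rfx4 is known from brain and testis. Rfx2 stood at 47.6, 51.8 and 31.5 CPM in WT libraries 1 to 3 and at 14.0, 14.5 and 22.2 CPM in sKO libraries 1 to 3. The lowest WT library thus held 31.5 CPM and the highest sKO library 22.2 CPM. Rfx2 fell by 1.37 in log2 units (SE 0.22, adjusted p = 0.0299 in edgeR), with WT at 2.58 times the sKO level, and DESeq2 gave an adjusted p of 1.68e-07 and limma-voom one of 0.0535. The edgeR adjusted p rose to 0.0990 without WT library 1, 0.152 without WT library 2, and to 0.101 and 0.178 when sKO library 1 or 2 was dropped, while the log2 fold change stayed between -1.65 and -1.23 over all 6 libraries left out in turn.

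Rfx4 was the least abundant tested regulator in CPM and had the largest estimate. It held 207, 100 and 49 counts in WT libraries 1 to 3 (11.6, 5.89 and 3.05 CPM) and 4, 5 and 23 counts in sKO libraries 1 to 3 (0.240, 0.303 and 1.26 CPM). The groups did not overlap, but the WT libraries spanned a wide range and sKO library 3 held more than the other sKO libraries. The log2 fold change was -3.47 (SE 0.68, adjusted p = 0.0596 in edgeR), with WT at 11.04 times the sKO level, and at rank 60 from the lowest of the 18860 estimates. The gene passed the filter on low counts through its WT libraries, since only 1 sKO library exceeded the minimum of 0.597 CPM. DESeq2 gave an adjusted p of 0.00523. Fitted without the filter, the log2 fold change of Rfx4 was also -3.47. Without sKO library 3 the log2 fold change was -4.66 (adjusted p = 0.0138 in edgeR), without WT library 3 -3.81 (0.0121), and without both libraries numbered 1 -2.49 (0.0411).

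Rfx3 showed no such difference. It stood at 17.0, 14.8 and 18.03 CPM in WT libraries 1 to 3 and at 16.4, 17.7 and 18.7 CPM in sKO libraries 1 to 3, with the groups interleaved. Its log2 fold change was 0.08 (SE 0.14, adjusted p = 0.844 in edgeR), and it lay between 0.00263 and 0.14 over the 6 fits without a single library.

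The promoter windows of these RFX genes are shown because Rfx2 and Rfx4 did not overlap between groups and Rfx3 did. Windows run from 250 bases before to 50 bases after the RefSeq start on GRCm38.p6, whereas the counts were made on mm39. Capitals mark the letters GTTGCC (the core of RFX sites), AACTG and AACGG (MYB sites), CACGCG and CACGTG (E-boxes), each searched on both strands.
Rfx2, chr17:56830959-56831258, minus strand: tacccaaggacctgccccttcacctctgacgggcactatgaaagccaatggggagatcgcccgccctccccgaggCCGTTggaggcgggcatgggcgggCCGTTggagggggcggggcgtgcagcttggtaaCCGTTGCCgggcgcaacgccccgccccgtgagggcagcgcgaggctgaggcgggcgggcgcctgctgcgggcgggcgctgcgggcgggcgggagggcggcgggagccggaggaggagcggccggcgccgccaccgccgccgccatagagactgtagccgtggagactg
Rfx3, chr19:28011117-28011416, minus strand: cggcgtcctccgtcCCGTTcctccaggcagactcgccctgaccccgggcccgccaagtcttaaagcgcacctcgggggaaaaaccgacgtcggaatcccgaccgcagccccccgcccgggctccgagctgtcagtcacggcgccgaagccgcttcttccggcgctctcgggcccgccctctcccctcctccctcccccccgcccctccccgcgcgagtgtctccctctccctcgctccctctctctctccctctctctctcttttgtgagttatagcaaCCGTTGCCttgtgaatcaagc
Rfx4 first start, chr10:84755798-84756097, plus strand: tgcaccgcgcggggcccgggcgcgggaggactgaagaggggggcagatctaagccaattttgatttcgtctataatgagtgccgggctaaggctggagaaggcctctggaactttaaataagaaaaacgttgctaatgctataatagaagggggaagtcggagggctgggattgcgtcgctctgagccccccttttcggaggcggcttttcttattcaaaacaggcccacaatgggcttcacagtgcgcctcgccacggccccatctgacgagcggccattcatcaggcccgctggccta
Rfx4 second start, chr10:84837898-84838197, plus strand: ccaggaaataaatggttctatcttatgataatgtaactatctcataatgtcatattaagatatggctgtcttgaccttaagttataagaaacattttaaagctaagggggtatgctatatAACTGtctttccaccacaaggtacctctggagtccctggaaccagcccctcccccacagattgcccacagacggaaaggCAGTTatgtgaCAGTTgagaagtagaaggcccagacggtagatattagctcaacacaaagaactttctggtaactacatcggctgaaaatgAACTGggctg
The Rfx2 window held AACGG letters at 3 places, of which the copy at -118 to -114 from the start shares bases with GTTGCC at -116 to -111. The Rfx3 window held the same overlapping pair of letters at 30 to 34 and 32 to 37 after the start. The Rfx4 windows held neither; the second held AACTG at 4 places. GTTGCC occurs in 12.5% of all 32851 RefSeq windows, AACGG in 17.4%, AACTG in 44.8%, CACGCG in 9.27% and CACGTG in 7.15%, so these matches describe letters and are not evidence of binding.

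Sox30 encodes an HMG-box factor of late spermatocytes and round spermatids. It stood at 27.9, 21.9 and 16.3 CPM in WT libraries 1 to 3 and at 7.63, 8.96 and 15.7 CPM in sKO libraries 1 to 3. The groups did not overlap, although sKO library 3 came close to WT library 3. The log2 fold change was -1.03 (SE 0.28, adjusted p = 0.122 in edgeR), with WT at 2.04 times the sKO level. DESeq2 gave an adjusted p of 0.00563. The edgeR value passed without sKO library 3 (log2 fold change -1.44, adjusted p = 0.00986), and the log2 fold change was -0.64 without both libraries numbered 1. The promoter windows of Sox30 and Tcfl5 are shown because both held CACGCG together with AACGG letters.
Sox30, chr11:45980060-45980359, plus strand: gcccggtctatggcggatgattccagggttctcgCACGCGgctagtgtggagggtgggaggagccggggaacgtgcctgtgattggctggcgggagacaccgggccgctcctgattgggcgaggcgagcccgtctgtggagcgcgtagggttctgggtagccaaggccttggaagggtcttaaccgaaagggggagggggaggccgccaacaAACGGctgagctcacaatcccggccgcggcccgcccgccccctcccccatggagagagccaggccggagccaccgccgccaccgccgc
Tcfl5, chr2:180642642-180642941, minus strand: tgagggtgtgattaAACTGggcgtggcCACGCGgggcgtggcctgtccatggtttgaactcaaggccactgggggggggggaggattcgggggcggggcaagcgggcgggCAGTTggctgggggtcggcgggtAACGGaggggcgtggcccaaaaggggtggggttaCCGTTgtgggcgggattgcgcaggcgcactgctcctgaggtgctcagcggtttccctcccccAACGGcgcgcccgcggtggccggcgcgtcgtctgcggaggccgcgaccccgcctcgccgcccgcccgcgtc
Across the 9 windows of 8 regulators matched by symbol, AACGG letters occurred in 5, of Tcfl5, Rfx2, Rfx3, Sox30 and Pou5f2, and CACGCG in 2. The palindromic cAMP response element TGACGTCA, the letters bound by CREM, occurred in 0 of the 9 windows and in 1.79% of all windows. The 9 windows include none of Crem itself or of Mybl1, so their promoters were not searched.

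Crem encodes activators and repressors of cAMP-responsive transcription from several promoters and splice forms, and in the testis the activator forms rise in spermatids. A count per gene symbol cannot separate these forms. Crem stood at 35.0, 21.3 and 21.2 CPM in WT libraries 1 to 3 and at 19.4, 14.8 and 25.8 CPM in sKO libraries 1 to 3. The groups overlapped, with sKO library 3 above 2 of the WT libraries. Its log2 fold change was -0.37 (SE 0.24, adjusted p = 0.551 in edgeR), between -0.63 and -0.09 over the 6 fits without a single library. Crem shares 472 exonic bases with the transcript Gm6225 on the opposite strand, which had 16 to 27 counts in WT and 10 to 13 in sKO libraries.

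The regulators of the basal transcription machinery did not pass the test. Tbpl1, the TBP-like factor (TRF2) required for spermiogenesis in the mouse, stood at 94.8, 70.4 and 66.0 CPM in WT libraries 1 to 3 and at 66.1, 69.1 and 73.0 CPM in sKO libraries 1 to 3. WT library 1 was high and the other 5 libraries were close to each other. The log2 fold change was -0.15 (SE 0.13, adjusted p = 0.668 in edgeR), and it turned to 0.03 without WT library 1. Tbpl1 shares 407 exonic bases with Slc2a12 on the opposite strand, which had 269 to 342 counts in WT and 340 to 372 in sKO libraries.

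Taf7l, an X-linked subunit of TFIID that in testis takes the place of TAF7, was the most abundant of the set. It stood at 319, 237 and 304 CPM in WT libraries 1 to 3 and at 300.2, 292 and 388 CPM in sKO libraries 1 to 3. The groups overlapped, with sKO library 3 highest. Its log2 fold change was 0.19 (SE 0.14, adjusted p = 0.593 in edgeR), between 0.0129 and 0.27 over the 6 fits without a single library. Pou5f2 (Sprm1), the tenth gene, did not reach the level for testing in any library: it had 2, 0 and 2 counts in WT and 2, 1 and 4 in sKO libraries, at or close to the 3-count limit, and its level could not be compared at this depth.

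Per kilobase of exon (GENCODE, GRCm38), the WT levels fell in the order Taf7l at 128 ± 19.5 CPM per kb, Tbpl1 at 23.6 ± 4.75, Tcfl5 at 21.1 ± 6.43, Mybl1 at 9.34 ± 2.52, Sox30 at 7.35 ± 1.93, Rfx2 at 5.97 ± 1.47, Crem at 4.39 ± 1.35, Rfx3 at 1.51 ± 0.148, Rfx4 at 1.45 ± 0.923 and Pou5f2 at 0.0566 ± 0.0492 (SD, n = 3 per group). Taf7l thus lay above all others in every WT library. The WT ranges of neighbours in this order overlapped for Tbpl1 and Tcfl5, for Mybl1 and Sox30, for Sox30 and Rfx2, for Rfx2 and Crem, and for Rfx3 and Rfx4, and did not overlap for the other 4 pairs of neighbours. In sKO, Rfx2 stood at 2.31 ± 0.625 and Rfx4 at 0.128 ± 0.122 CPM per kb, below Rfx3 at 1.596 ± 0.105 in the case of Rfx4 and above it in the case of Rfx2 (SD, n = 3 per group).

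The libraries of a group did not hold the regulators at one level. Of the 9 tested regulators, 7 had their highest WT level in WT library 1, the exceptions being Rfx2 and Rfx3, and all 9 had their highest sKO level in sKO library 3. On the scale of log2(CPM + 0.5) relative to the WT mean, Rfx4 stood at 0.90, -0.02 and -0.87 in WT libraries 1 to 3 and at -3.13, -3.02 and -1.88 in sKO libraries 1 to 3. The median of the pachytene spermatocyte markers showed the same order as Rfx4. It stood at 0.65, -0.12 and -0.46 in WT and at -1.81, -1.61 and -1.04 in sKO libraries 1 to 3. Sox30 also followed this order. Tbpl1 followed it only within each group, with sKO library 3 (-0.06) above WT libraries 2 and 3 (-0.11 and -0.20). Mybl1, Tcfl5, Rfx2, Rfx3, Crem and Taf7l departed from it in WT, in sKO or in both, as Mybl1 at 0.40, -0.37 and -0.03 in WT. All 18 tested pachytene markers had estimates below 0, with a median log2 fold change of -1.56 against 0.03 for all tested genes, and they summed to 869 to 1768 in WT against 390.2 to 603 CPM in sKO. edgeR called 4 of the 18 lower and 0 higher, against 1.27% and 0.0318% of all tested genes. The 4 were the acrosomal protease Acr (log2 fold change -3.22), Tekt1 (-2.95), Nme5 (-1.58) and the RNA-binding protein Ybx2 (-1.55). Acr and Spata16 exceeded the filter minimum of 0.597 CPM in only 1 sKO library each, so they were tested through WT, where they were high. Adam2, with 10 counts in sKO library 1, lay near that minimum there. These genes are no support in the count of 18 or in the median, and Acr is none in the 4 calls. A smaller share of pachytene cells and less RNA per cell cannot be told apart in whole testis, and the part of either in the levels of the regulators was not tested.

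**Figure D2:**
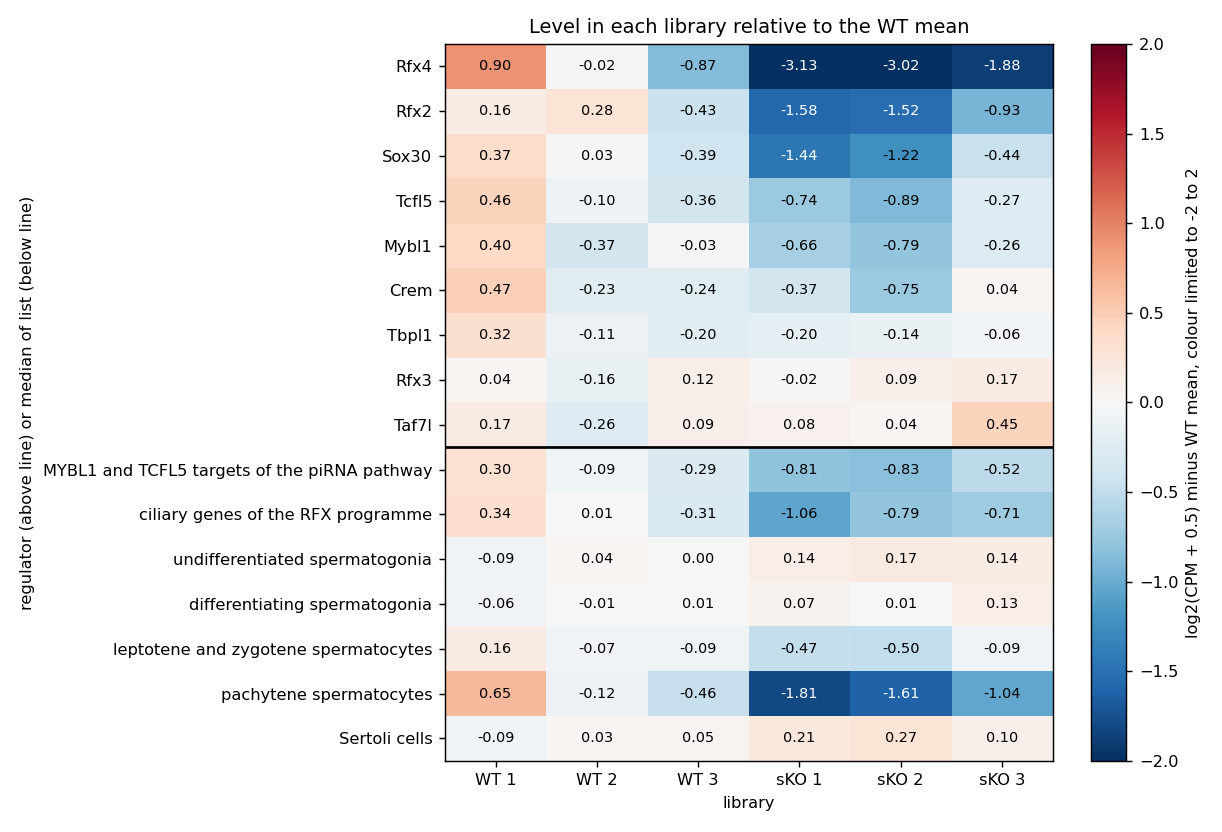
Level of each tested regulator (rows above the line) and the median of 7 gene lists (rows below it) in each of the 6 libraries (columns), as log2(CPM + 0.5) minus the WT mean; numbers give the values and colours saturate at -2 and 2. WT library 1 is highest for most regulators, and sKO library 3 is the highest sKO library for all 9 regulators and for pachytene markers (-1.04 against -1.81 and -1.61).

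Earlier and somatic cell types were measured by further lists, from which the 10 regulators were left out. In edgeR, 1.27% of all tested genes were called lower and 0.0318% higher, and 44.7% had estimates below 0. Before adjustment, 8.54% of all tested genes were lower and 5.06% higher. Leptotene and zygotene markers had a median log2 fold change of -0.46, with 17 of 19 estimates below 0 and 2 called lower, the surface protein Tex101 (-0.75, SE 0.12, adjusted p = 0.0245 in edgeR) and the double-strand break enzyme Spo11 (-0.99, SE 0.16, adjusted p = 0.0253 in edgeR). Their sum was 2653 to 3750.0 in WT against 1967 to 2833 CPM in sKO. The medians were 0.16 for 15 markers of undifferentiated and 0.06 for 9 markers of differentiating spermatogonia, with 0 called by edgeR, DESeq2 or limma-voom and 1 lower and 2 higher, and 1 lower and 1 higher, at an unadjusted p under 0.05. All 21 Sertoli markers had estimates above 0 (median 0.21), with 0 called by edgeR, DESeq2 or limma-voom and 8 higher at an unadjusted p under 0.05, and they summed to 9097 to 10588 CPM in sKO. The median log2 fold changes were 0.24 for 12 Leydig, 0.29 for 10 myoid, 0.35 for 16 macrophage and 0.43 for 10 epididymis and duct markers, with 0 called by any of these tools and 0, 0, 0 and 1 lower and 3, 0, 2 and 0 higher before adjustment. The part of any of these cell types in the levels of the regulators was not tested. The pachytene median includes Acr, Spata16 and Adam2, which are no support in it, so positions against it are description only. The estimates of Mybl1, Tcfl5, Rfx2 and Sox30 lay between the median of leptotene and zygotene markers and that of pachytene markers. Those of Crem (-0.37), Tbpl1 (-0.15), Rfx3 (0.08) and Taf7l (0.19) lay above both medians. That of Rfx4, which was tested only through its WT libraries, lay below both. Multiciliated cells of the efferent ducts also use RFX factors, and their factors Mcidas and Gmnc were at or below 0.684 and 0.3003 CPM in all libraries, while Foxj1 stood at 2.63 ± 0.489 in WT against 2.95 ± 0.574 CPM in sKO (SD, n = 3 per group). Deup1, a gene of centriole amplification in the same list, stood at 2.52, 1.89 and 1.37 CPM across the WT samples and 0.420, 0.908 and 1.21 CPM across the sKO samples, without overlap (log2 fold change -1.18, adjusted p = 0.219 in edgeR). Its sKO library 1 lay under the filter minimum of 0.597 CPM, so Deup1 passed the filter only through WT and its lower position is no support.

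Relatives and partners of the regulators numbered 28, of which 25 were tested. Their median log2 fold change was -0.10. In edgeR 2 passed as lower and 0 as higher, against 1.27% and 0.0318% of all tested genes. DESeq2 called 3 of them lower, against 3.17% of the genes it tested. All sKO libraries lay below all WT libraries for 6 of the 25, against 10.7% of all tested genes. Rfx8, a further RFX-family gene, stood at 7.46, 4.18 and 2.61 CPM in WT libraries 1 to 3 and at 0.781, 0.605 and 1.21 CPM in sKO libraries 1 to 3. It fell by 2.44 in log2 units (SE 0.42, adjusted p = 0.0314 in edgeR), and no sKO library reached the WT range. Its sKO library 2, with 10 counts, lay near the filter minimum of 0.597 CPM. Gtf2a1l (ALF), the germ cell form of the TFIIA large subunit that works with TBP-like factors, stood at 7.23, 4.48 and 2.74 CPM in WT, then 0.240, 0.363 and 1.26 CPM in sKO libraries 1 to 3. Its log2 fold change was -2.91 (SE 0.55, adjusted p = 0.0430 in edgeR). Only 1 sKO library exceeded the filter minimum of 0.597 CPM, so that, as for Rfx4, Gtf2a1l was tested through WT and is no support. The general counterpart Gtf2a1 had a log2 fold change of -0.10 (SE 0.17, adjusted p = 0.853 in edgeR).

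None of the other RFX genes and general counterparts tested was called by edgeR. Rfx1 had a log2 fold change of 0.06, Rfx5 -0.34 and Rfx7 -0.11, and Rfx6 had a count of 0 in all libraries. All sKO libraries of Rfx5 lay below all WT libraries (unadjusted p = 0.0210 in edgeR). Rfxap, a partner of RFX5 at MHC class II promoters, stood at 35.1 ± 4.56 in WT against 25.4 ± 1.04 CPM in sKO (SD, n = 3 per group; log2 fold change -0.47, adjusted p = 0.0980 in edgeR). DESeq2 called Rfxap (adjusted p = 0.0339), and its groups did not overlap. Mybl2 (B-MYB), the MYB factor of dividing cells, stood at 44.1 ± 2.27 and 49.1 ± 3.04 CPM (SD, n = 3 per group; log2 fold change 0.16, adjusted p = 0.542 in edgeR). Creb1, Tbp and Taf7 had log2 fold changes of -0.04, -0.28 and 0.07. Taf7l2, a close relative of Taf7l, stood at 91.2, 52.6 and 48.9 CPM in WT, then 26.2, 24.5 and 47.8 CPM in sKO libraries 1 to 3 (log2 fold change -0.97, SE 0.34, adjusted p = 0.283 in edgeR). Reads shared between such relatives can be split by the counting, so these values are uncertain. Fhl5 (ACT), the testis coactivator of CREM, was too low to test, at 0.316 ± 0.0499 in WT against 0.198 ± 0.143 CPM in sKO (SD, n = 3 per group).

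**Figure D3:**
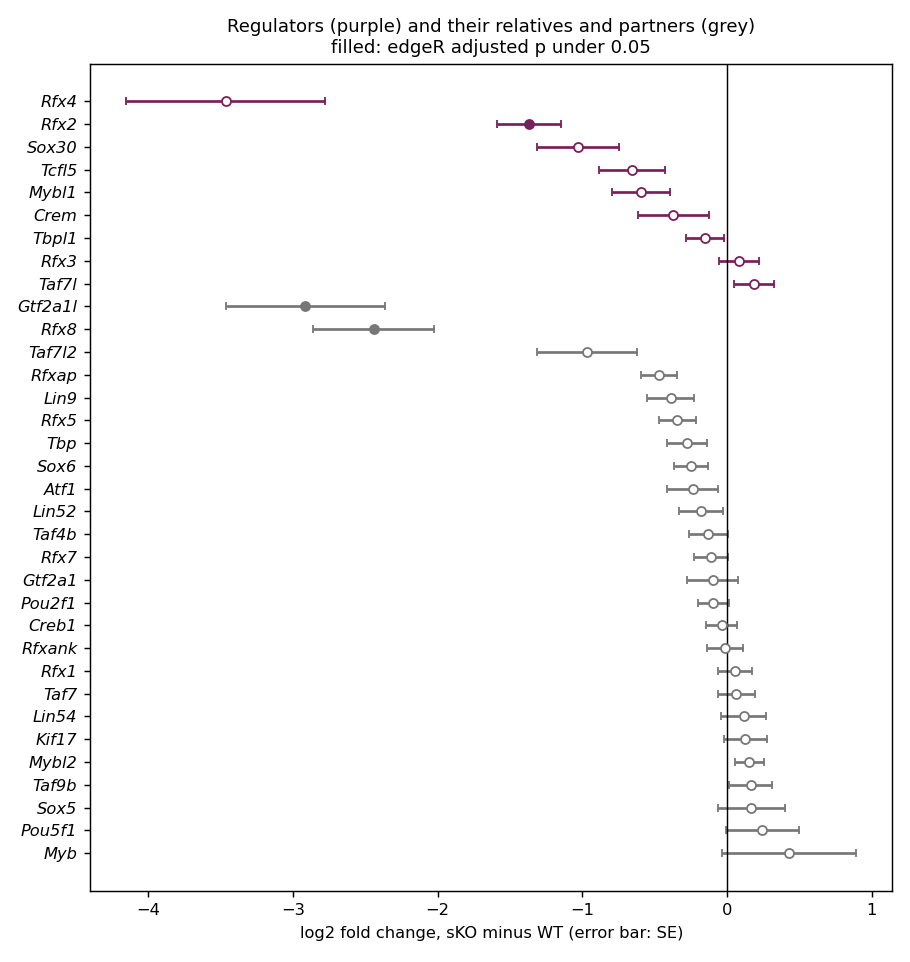
Log2 fold change of sKO minus WT (x axis) with its SE for the 9 tested regulators (purple) and 25 tested relatives and partners (grey); filled points passed an edgeR adjusted p of 0.05. Rfx2, Rfx8 and Gtf2a1l are filled, at -1.37, -2.44 and -2.91.

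Other transcription regulators of male meiosis and spermiogenesis formed a list of 28 genes, of which 27 were tested. Their median log2 fold change was 0.00816. Before adjustment (p under 0.05 in edgeR), 7 were lower and 0 higher, against 8.54% and 5.06% of all tested genes. edgeR and limma-voom called 0, and DESeq2 called 2 lower, against 3.17% of the genes it tested. The 2 were Zfp541 and Kctd19, which act together in a chromatin complex at the pachytene stage. Kctd19 stood at 129, 100.1 and 73.8 CPM in WT libraries 1 to 3 and at 15.4, 22.1 and 50.7 CPM in sKO libraries 1 to 3 (log2 fold change -1.78, SE 0.50, adjusted p = 0.218 in edgeR). Zfp541 stood at 92.2 ± 12.1 and 58.5 ± 18.3 CPM (SD, n = 3 per group; log2 fold change -0.65, adjusted p = 0.163 in edgeR). Zfp318 had a smaller log2 fold change of -0.36 (SE 0.12, adjusted p = 0.213 in edgeR). Hsf5, a heat shock factor of pachytene spermatocytes, had a log2 fold change of -1.63 (SE 0.51, adjusted p = 0.247 in edgeR) and Brdt, the testis bromodomain protein, one of -0.93 (SE 0.31, adjusted p = 0.254 in edgeR). The regulators of meiotic entry stood at nearly equal levels: Stra8 at 133 ± 33.0 and 134 ± 9.57 CPM and Meiosin at 219 ± 20.3 and 241 ± 19.5 CPM in WT and sKO (SD, n = 3 per group).

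Genes that the regulators are known to activate were listed in 3 groups. Of 13 piRNA pathway genes listed as MYBL1 or TCFL5 targets from general knowledge, 12 had estimates below 0, against 44.7% of all tested genes. Their median log2 fold change was -0.71, and binding at their promoters was not examined. For 10 of the 13, all sKO libraries lay below all WT libraries, against 10.7% of all tested genes. Tdrd6, at 0.481 CPM in sKO library 1, was under the filter minimum of 0.597 CPM there and is no support in the 10. Calls by edgeR were 2 lower (1.27% of all tested genes) and 0 higher (0.0318%). The 2 were the helicases Tdrd9 (-1.02, SE 0.18, adjusted p = 0.0314 in edgeR) and Mov10l1 (-0.71, SE 0.13, adjusted p = 0.0314 in edgeR). DESeq2 called 9 lower, against 3.17% of the genes it tested. The RNA helicase Ddx39a had a log2 fold change of -0.49 (SE 0.11, adjusted p = 0.0512 in edgeR). Piwil1, the PIWI protein of pachytene piRNAs, stood at 196, 107 and 58.2 CPM in WT libraries 1 to 3 and at 5.89, 9.08 and 17.9 CPM in sKO libraries 1 to 3 (log2 fold change -3.45, SE 0.65, adjusted p = 0.0933 in edgeR). Henmt1 and Tdrd3 had log2 fold changes of 0.06 and -0.11.

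Of 26 ciliary genes, the class that RFX factors activate, 25 were tested, with a median log2 fold change of -1.06. edgeR called 8 lower and 0 higher, against 1.27% and 0.0318% of all tested genes. Of the 25, 17 did not overlap between groups, all lower in sKO, against 10.7% of all tested genes. Tekt4, with 6, 8 and 5 counts in sKO libraries 1 to 3, lay under the filter minimum of 0.597 CPM in all of them. It was tested only through WT and is no support in the 17. The central apparatus gene Spag17 fell by 2.74 in log2 units (SE 0.30, adjusted p = 0.0145 in edgeR), the tektin Tekt1 by 2.95 (SE 0.43, adjusted p = 0.0245 in edgeR) and the dynein assembly factor Zmynd10 by 3.61 (SE 0.47, adjusted p = 0.0251 in edgeR). Spag17, with 10 counts in sKO library 2, lay near the filter minimum there. The 5 further calls were Cfap206, Mak, Dnah1, Dnai1 and the intraflagellar transport gene Ift172, with log2 fold changes of -2.68, -1.51, -1.38, -1.18 and -0.65. Some members had estimates near or above 0, with Bbs4 at 0.05 and Dnai2 at 0.23. Spag6l and Tekt1 also stand in the pachytene list.

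Of 23 haploid-phase genes downstream of CREM, TBPL1, TAF7L or SOX30, 16 were too low to test, with a highest group mean of 0.506 CPM, among them Prm1, Tnp1, Tnp2 and Odf1. Of the 7 tested, edgeR called Actl7b lower, from 1.90 ± 1.26 to 0.172 ± 0.107 CPM (SD, n = 3 per group; log2 fold change -3.40, SE 0.66, adjusted p = 0.0417 in edgeR), and 0 higher. All 3 sKO libraries of Actl7b lay under the filter minimum of 0.597 CPM, so it was tested only through WT and is no support. Pdha2, the testis form of a pyruvate dehydrogenase subunit, stood at 46.0 ± 19.03 and 18.7 ± 8.43 CPM (SD, n = 3 per group; adjusted p = 0.234 in edgeR). The median log2 fold change of the 7 was -0.13.

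**Figure D4:**
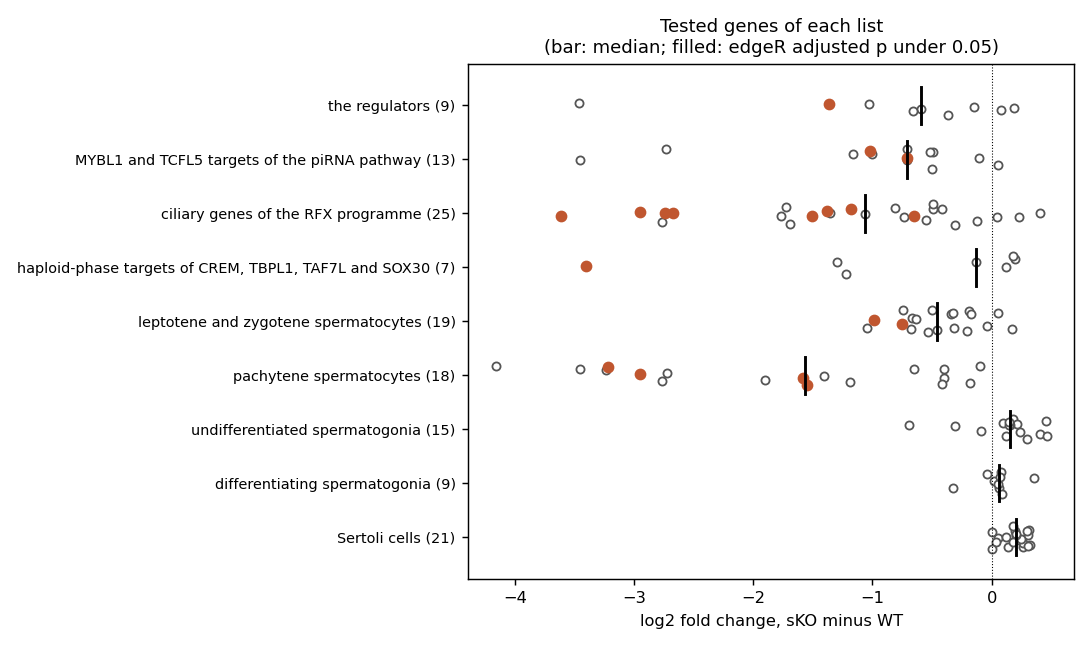
Log2 fold change of sKO minus WT (x axis) of each tested gene in 9 lists (y axis, with the number tested in parentheses); bars mark medians and filled points passed an edgeR adjusted p of 0.05. Ciliary genes hold 8 filled points and a median of -1.06, pachytene markers 4 and -1.56, and the regulators 1 and -0.59. Acr, among the 4, was tested only through WT and is no support. Neither Acr nor Spata16 and Adam2 is support in the pachytene median.

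All of these calls depended on single libraries. Without WT library 2, sKO library 1 or sKO library 2, edgeR called 0 of all genes in either direction. Before adjustment, 1662, 1410 and 1221 genes had a p under 0.05 as lower and 1102, 431 and 503 as higher. Without WT library 1 the calls of Rfx2, Gtf2a1l, Tdrd9, Mov10l1 and Actl7b were also lost, with edgeR adjusted p of 0.0990, 0.0860, 0.0560, 0.0584 and 0.102. Their log2 fold changes in that fit were -1.30, -2.50, -0.86, -0.61 and -2.80, against -1.37, -2.91, -1.02, -0.71 and -3.40 with all libraries.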

How the data were processed

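RNA of 6 whole-testis samples, 3 WT and 3 sKO, was measured by poly(A) RNA sequencing. The deposited values were raw counts of reads per gene symbol, in 1 table. Per the submitters' processing notes, reads were handled with Trim Galore, HISAT2 and featureCounts on build mm39; versions, annotation, strand setting and the treatment of multi-mapping reads: not given in the sources used here. Columns named con and scKO were read as WT and sKO and matched by replicate number. Library totals ranged from 15941672 to 18296594 counts, and limits from counts cover counting error only. Within groups no library pair looked like a repeat (chi-square over degrees of freedom 4.45 to 20.2).

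Tests used edgeR 4.0.16 under R 4.3.3 (filterByExpr, TMM factors, robust quasi-likelihood F test, sKO against WT, no covariates), with p-values adjusted by the Benjamini-Hochberg method over 18860 genes. A gene with an adjusted p under 0.05 is referred to as called. The edgeR calls in each list are to be read against the 1.27% lower and 0.0318% higher among all tested genes. CPM values use TMM-scaled library sizes, and the SE of a log2 fold change comes from its F statistic. Alternatives were DESeq2 1.42.0, limma-voom (limma 3.58.1), another scaling, no filter, no robust dispersion, a replicate block and libraries left out.

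The regulators and the 14 further lists were chosen with earlier results of these data known, and the lists were written from general knowledge. A rule picked Rif1, the 10 regulators and the 3 genes with the smallest p of each germ cell or target list. It also picked the 2 most abundant genes of each somatic or duct list. Not all of these are described, and Hormad2, Bcl6b, Ret, Ccnd2, Kit, Oaz3, Clu and Ctsl are among those left out. Chosen after their values were seen were Piwil1, Kctd19 library values, Hsf5, Brdt, Taf7l2, Stra8, Meiosin, Mybl2, Foxj1, Deup1, Fhl5 and Ddx4. So were the remaining genes in the text. Promoter sequences come from RefSeq (GRCm38.p6), with windows of 8 of the 10 regulators used. No window of Mybl1 was available, and Crem was left out of the search. Exon lengths and overlaps come from GENCODE vM21 (GRCm38), another build than that of the counts.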

Additional observations from a re-analysis of the deposited data

How the results depend on the processing

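Counts of calls moved with the method. The lower and higher genes numbered 240 and 6 with edgeR, 992 and 154 without the low-count filter, 711 and 56 with DESeq2, 0 and 0 with limma-voom, and 155 and 5 without both libraries numbered 1; leaving out each library in turn gave 0 to 624 lower and 0 to 31 higher. Of the 9 tested regulators, 1 was called lower with edgeR, 5 without the filter, 4 with DESeq2, 0 with limma-voom, 2 without robust dispersion and 0 to 4 when each library was left out; 0 were called higher under all settings. With the replicate number as a replicate block edgeR called 21 genes lower and 0 higher, and 0 regulators (Rfx2 adjusted p = 0.166). Deviations of same-numbered libraries correlated at -0.37, 0.15 and -0.31, and those of other WT and sKO pairs at -0.29 to 0.49. Deviations were taken from means of 3 libraries and are tied to each other. They cannot decide whether same-numbered libraries shared more than a label. The sign of the estimate turned for Tbpl1 without WT library 1 (0.026, range -0.25 to 0.026 over libraries left out) and without both libraries numbered 1 (0.045), for Acta2 (-0.025) and Defb19 (-0.22) in the latter fit, and for Mrc1 (-0.11 to 0.087), Defb19 (-0.10 to 0.22) and Spint1 (-0.16 to 0.12) when single libraries were left out. None of these was called, and the cause was not tested. The other 8 tested regulators kept their sign under all 13 alternatives.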

Other observations

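Ratios of a regulator to a relative within the same library do not depend on how libraries are scaled; the pairs were chosen after the values were seen. The CPM ratio of Rfx2 to Rfx3 took the values 2.79, 3.49 and 1.75 across the WT samples (numbers 1 to 3), and 0.853, 0.819 and 1.19 across the sKO samples, without overlap. Its geometric mean was 2.74-fold lower in sKO (exact two-sided permutation test, p = 0.1, the minimum for 3 against 3). The ratio of Taf7l2 to Taf7 was 2.07-fold lower, also without overlap (exact permutation p = 0.1). The ratio of Mybl1 to Mybl2 was 1.15 ± 0.348 in WT and 0.683 ± 0.139 in sKO (SD, n = 3 per group), with overlapping groups (exact permutation p = 0.2). Ratios of Taf7l to Taf7 (3.28 ± 0.264 and 3.55 ± 0.177), Tbpl1 to Tbp (1.31 ± 0.109 and 1.43 ± 0.0690) and Crem to Creb1 (0.385 ± 0.0951 and 0.308 ± 0.0938; SD, n = 3 per group) also overlapped between groups. A ratio within a library shows unequal change, and does not show which of the genes changed.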
